A study of Rattus norvegicus with 7 samples.

Results

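The glutathione S-transferases of the rat brain were examined in 2 lines bred selectively for drinking or avoiding alcohol. Of 10 listed genes (Gsta1, Gsta3, Gsta4, Gstm1, Gstm2, Gstm3, Gstp1, Gstt1, Gstt2 and Mgst1), 7 had an array probe whose transcript belongs to the gene in RefSeq. Each of the 7 had 1 probe, out of 33849 transcript probes on the array, and all 7 passed the filter on dim probes that left 29003 probes for testing. No probe was matched to Gsta4, Gstm2 or Gstp1, so these genes were not analysed here. RNA of the whole brain came from adult male Wistar rats of the alcohol-preferring line (P, 4 rats, numbered 1 to 4) and the alcohol non-preferring line (NP, 3 rats, numbered 2 to 4). All 7 rats were housed in pairs and had never been given alcohol. Each rat was hybridised to its own 1-colour array, and the authors had dropped a further NP rat at quality control. There was 1 line of each kind, so breeding for alcohol preference and any other difference between these lines cannot be told apart.

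Between 26361 and 29091 transcript probes (77.9% to 85.9%) lay above background on an array. Precision is limited by the number of arrays. The headers of the scanner files carry 3 dates: NP 2, NP 3, P 1 and P 2 share date 1, NP 4 alone has date 2, and P 3 and P 4 share date 3. The labels do not say which step the date records. P 3 and P 4 had the highest median spot intensities (192 and 187) and P 2 the lowest (126), and this spread was normalised away before testing. Values below are log2 normalised signals, and all differences between lines are P minus NP. Signals of different probes cannot be set against each other, so no order of abundance among the genes is given.

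Glutathione S-transferases join the tripeptide glutathione to reactive electrophiles such as drugs, pollutants and the aldehydes formed when membrane lipids are oxidised. The cytosolic enzymes act as dimers and are grouped by sequence into classes, among them alpha (Gsta), mu (Gstm), pi (Gstp) and theta (Gstt), while Mgst1 belongs to a separate family of membrane-bound enzymes. In the brain such enzymes are known from astrocytes, ependyma and the choroid plexus in particular, and many of their genes are induced by the transcription factor NRF2 through antioxidant response elements.

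Between the P and NP rats none of the 7 transferases passed the test. In limma, 0 of 7 had an adjusted p under 0.05, beside 0.290% of all tested probes. An unadjusted p under 0.05 was also met by 0 of 7, and the share of all probes at that level is not given here. The plain equal-variance test per probe called none of the 7 either. For Gsta1 and Gstm3, P 2 was the lowest of all rats measured, and P 3 and P 4 lay at about the level of the NP rats. With the header date as a block, which compares P with NP among the 4 arrays of date 1, Gstm3 was lower in P 1 and P 2 by 1.69-fold and Gsta1 was lower in P 2, its single usable P rat there, by 1.81-fold. Several alternatives ended those calls, as given beside them below.

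The RefSeq promoter windows of these genes are given here for the alpha and mu members, since the results below turn on Gsta1 and Gstm3, and Gsta3 and Gstm1 are the other measured members of their classes. Each window runs from 250 bases before to 50 bases after the annotated start on GRCr8 and is written 5′ to 3′ on the gene's strand. The windows are chr9:31216483-31216782 (minus strand) for Gsta1, chr9:31154739-31155038 (plus strand, the first of its 2 listed starts) for Gsta3, chr2:198343334-198343633 (minus strand) for Gstm1 and chr2:198300618-198300917 (minus strand) for Gstm3. Capitals mark the letters TGACNNNGC, the core of the antioxidant response element, searched on both strands.
Gsta1: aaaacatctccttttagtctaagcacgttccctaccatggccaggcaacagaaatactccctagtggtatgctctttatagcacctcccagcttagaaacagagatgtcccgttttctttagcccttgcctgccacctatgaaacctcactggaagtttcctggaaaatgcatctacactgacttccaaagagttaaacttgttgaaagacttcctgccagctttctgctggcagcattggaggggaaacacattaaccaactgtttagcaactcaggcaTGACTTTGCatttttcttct
Gsta3: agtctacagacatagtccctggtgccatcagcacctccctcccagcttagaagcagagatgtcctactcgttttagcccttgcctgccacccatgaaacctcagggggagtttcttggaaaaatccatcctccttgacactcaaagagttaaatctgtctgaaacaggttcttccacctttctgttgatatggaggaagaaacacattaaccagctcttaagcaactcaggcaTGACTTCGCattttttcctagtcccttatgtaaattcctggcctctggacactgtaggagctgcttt
Gstm1: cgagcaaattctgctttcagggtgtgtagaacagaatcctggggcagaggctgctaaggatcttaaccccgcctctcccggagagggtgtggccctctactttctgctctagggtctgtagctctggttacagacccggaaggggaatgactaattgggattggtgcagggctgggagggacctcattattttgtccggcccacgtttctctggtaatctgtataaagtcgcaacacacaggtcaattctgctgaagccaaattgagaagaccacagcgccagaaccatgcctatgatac
Gstm3: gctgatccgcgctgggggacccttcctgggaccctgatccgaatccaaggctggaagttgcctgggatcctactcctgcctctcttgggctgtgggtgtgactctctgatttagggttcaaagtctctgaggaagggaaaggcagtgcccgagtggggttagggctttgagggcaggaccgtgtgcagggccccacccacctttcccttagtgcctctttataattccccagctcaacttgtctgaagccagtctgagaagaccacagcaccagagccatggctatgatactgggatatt
The motif stood in 12.1% of all 33469 promoter windows of the same length. Among the listed genes 3 of 9 windows held it, those of Gsta1, Gsta3 (first start) and Gstp1. In Gsta1 the letters were TGACTTTGC and began 31 bases after the start, and in Gsta3 they were TGACTTCGC and began 17 bases before it. The Gstm1 and Gstm3 windows held no match, which says only that these letters are not in these windows. Aligned end to end, the windows of Gstm1 and Gstm3 shared 58.9% of alignment columns and those of Gsta1 and Gsta3 58.3%, the highest of the pairs aligned. Gsta1 and Gstm3 shared 47.4%, near the lowest of the pairs aligned (45.8%, Gsta1 and Mgst1).

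Gsta1 encodes an alpha-class subunit, a class known for conjugating products of lipid peroxidation and for reducing lipid hydroperoxides. Its probe (GE13354) read 8.74, 8.90 and 8.55 in NP 2, NP 3 and NP 4, and 7.97, 8.73 and 8.54 in P 2, P 3 and P 4. The spot of P 1 was flagged irregular and left out, and it would have read 8.03. P 2 was the low rat, and P 3 and P 4 lay within or just under the NP range, so the lines overlapped. The P mean was 8.41 ± 0.40 (SD, n = 3) and the NP mean 8.73 ± 0.18 (SD, n = 3). Their difference of -0.32 ± 0.20 (SE; 95% interval -0.77 to 0.13) did not pass in limma (adjusted p = 0.543). The raw spots, on arrays of which P 2 was the dimmest and P 3 the brightest over all probes, read 461, 454 and 378 scanner units in the NP rats, 193 in P 2, 563 in P 3 and 464 in P 4, over local backgrounds of 51 to 66. The flagged spot of P 1 read 253 over a background of 61.

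Gsta3 encodes another alpha-class subunit. Its probe (GE1125325) read 6.31 and 6.61 in NP 3 and NP 4 and 6.52, 6.33, 6.20 and 6.33 in P 1 to P 4. The spot of NP 2 was flagged irregular and left out. In P the probe was above background on 1 of 4 arrays, P 1, and in NP on both arrays left, so these values lie at the floor of the measurement and have little room to fall. The difference was -0.11 ± 0.15 (SE; 95% interval -0.45 to 0.23; limma adjusted p = 0.779), and the lines overlapped. Kept, the flagged spot of NP 2 would have read 7.74, far above the other 6 values.

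**Figure D1:**
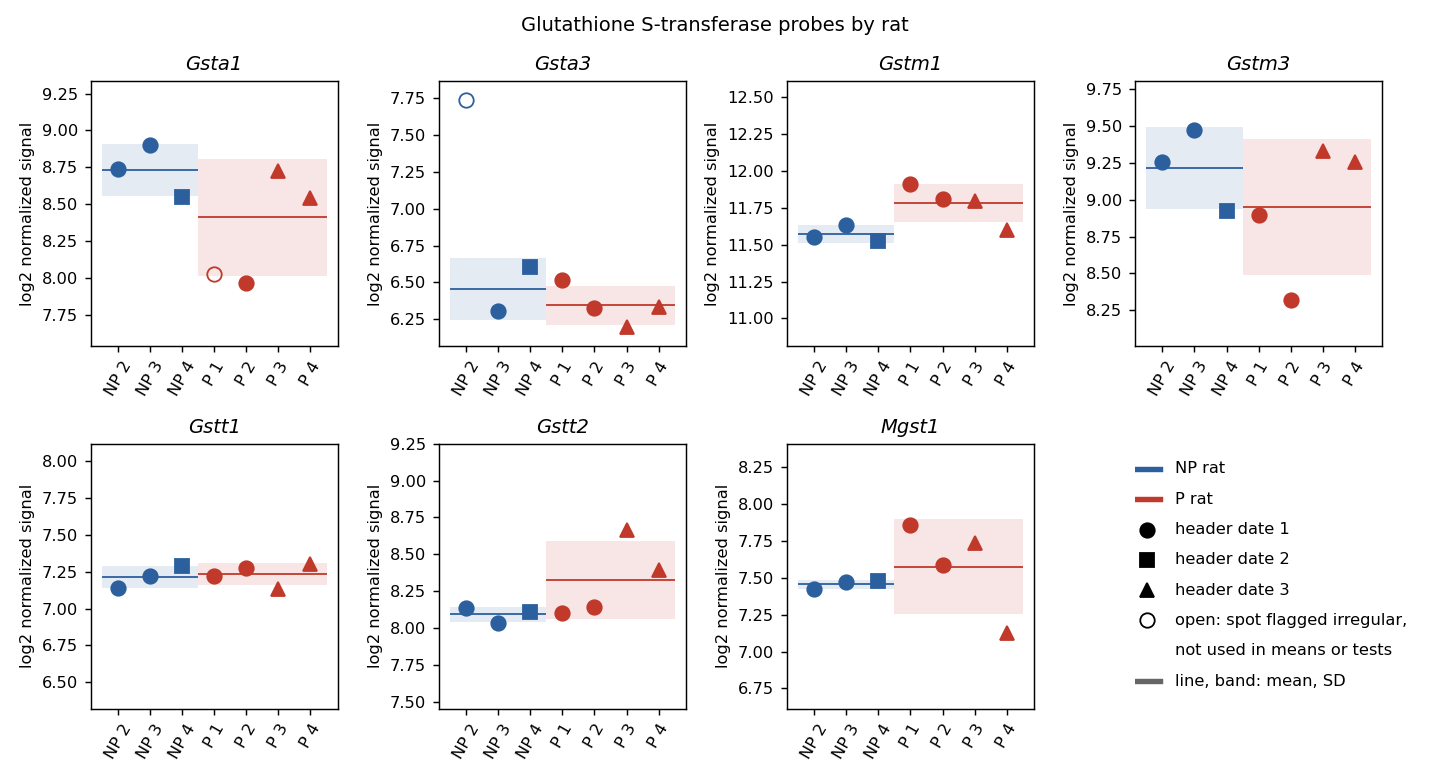
Log2 normalised signal (y axis) of the 7 glutathione S-transferase probes in each of the 3 NP and 4 P rats (x axis), with the group mean as a line and its SD as a band. Marker shapes give the date in the file header, and open markers are spots flagged irregular, which entered no test. Gsta1 and Gstm3 are lowest in P 2, at 7.97 and 8.32, while P 3 and P 4 lie beside the NP rats.

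Gstm1 encodes a mu-class subunit that conjugates a wide range of electrophiles and is known from astrocytes. Its probe (GE20274) read 11.56, 11.64 and 11.52 in the NP rats and 11.91, 11.81, 11.80 and 11.60 in the P rats. P 1, P 2 and P 3 lay above every NP rat, and P 4 lay between NP 2 and NP 3. The P mean was 11.78 ± 0.13 (SD, n = 4) and the NP mean 11.57 ± 0.06 (SD, n = 3). The difference of 0.21 ± 0.12 (SE; 95% interval -0.05 to 0.47) did not pass in limma (adjusted p = 0.494). It kept its sign, and its adjusted p stayed above the threshold, under every alternative run, and ranged from 0.17 to 0.27 when each rat was left out in turn.

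Gstm3 encodes another mu-class subunit, which the RefSeq table also lists under the older symbol Gstm4. Its probe (GE1114249) read 9.25, 9.47 and 8.92 in the NP rats and 8.89, 8.32, 9.33 and 9.25 in P 1 to P 4. P 2 was the lowest rat, P 1 lay just under NP 4, and P 3 and P 4 lay within the NP range, so the lines overlapped. The P mean was 8.95 ± 0.46 (SD, n = 4) and the NP mean 9.22 ± 0.28 (SD, n = 3). The difference of -0.27 ± 0.24 (SE; 95% interval -0.79 to 0.25) did not pass in limma (adjusted p = 0.659). Without P 2 it was -0.06, so most of it rested on that rat. The raw spots, on the same dimmer and brighter arrays, were 679, 662 and 503 scanner units in the NP rats and 450, 243, 871 and 748 in P 1 to P 4, over local backgrounds of 61 to 104.

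**Figure D2:**
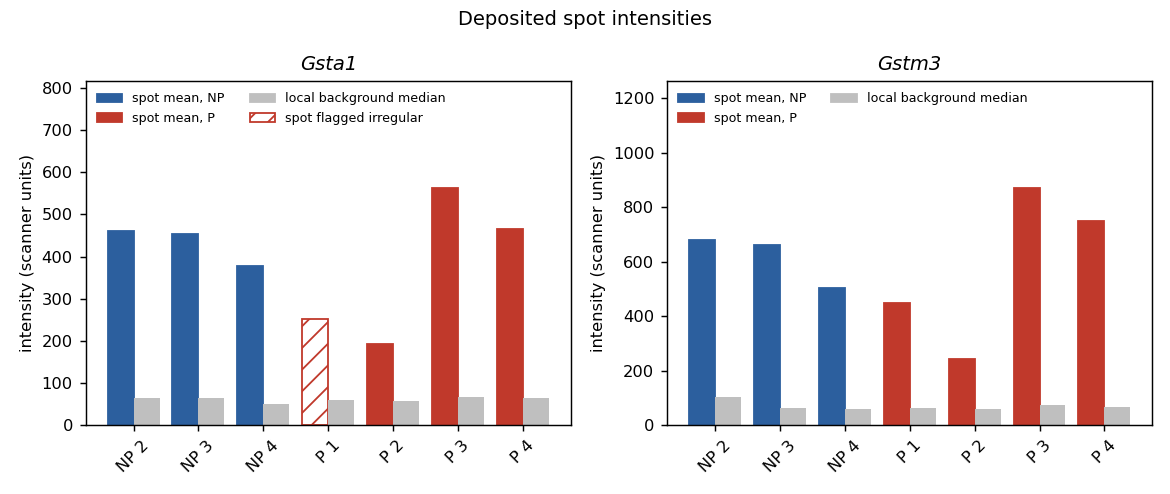
Deposited mean spot intensity of the Gsta1 and Gstm3 probes in each rat (bars, scanner units, from 0), with the median of the local background in grey. The hatched bar is the Gsta1 spot of P 1, flagged irregular. Before any normalisation P 2 is lowest for both probes, at 193 and 243, and P 3 is highest, at 563 and 871; P 2 also has the lowest median spot over all probes (126) and P 3 the highest (192).

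The theta-class enzymes, which act on small halogenated compounds and sulfate esters among others, had 2 probes. Gstt1 (GE22170) read 7.14, 7.22 and 7.29 in the NP rats and 7.22, 7.27, 7.13 and 7.30 in the P rats. These 7 values lay within 0.17 of each other, the narrowest range of the 7 probes, and the lines overlapped. The difference was 0.02 ± 0.11 (SE; 95% interval -0.23 to 0.26; limma adjusted p = 0.962), the smallest difference of the 7.

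Gstt2 (GE19973) read 8.13, 8.03 and 8.11 in the NP rats and 8.10, 8.14, 8.67 and 8.39 in P 1 to P 4. P 3 and P 4 were high, and P 1 and P 2 lay at the NP level. The difference was 0.23 ± 0.15 (SE; 95% interval -0.10 to 0.56; limma adjusted p = 0.545). Without P 1 and P 2 it was 0.44 ± 0.13, with an unadjusted p of 0.00806 and an adjusted p of 0.172 in limma. P 3 and P 4 are also the arrays of header date 3, which holds no NP rat, so line and date cannot be told apart in those values.

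Mgst1, the membrane-bound enzyme, is known for both transferase and glutathione peroxidase activity. Its probe (GE21645) read 7.42, 7.47 and 7.48 in the NP rats and 7.86, 7.59, 7.73 and 7.13 in P 1 to P 4. The NP rats lay within 0.05 of each other, 3 of the P rats lay above them and P 4 below. The difference was 0.12 ± 0.17 (SE; 95% interval -0.25 to 0.49; limma adjusted p = 0.790). The SD was 0.32 in P (n = 4) and 0.03 in NP (n = 3), and this difference in spread was not tested.

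Over the 7 probes 4 differences were above 0 and 3 below, with a median of 0.02, beside a median of 0.01 over all 29003 tested probes. The median size of a difference was 0.21 among the 7 and 0.14 over all probes. The P and NP values overlapped for all 5 members with 7 values, and over all probes with 7 values they did not overlap for 13.3% (P lower for 6.37%). In a whole brain, fewer cells of a type and less RNA per cell cannot be told apart, and a change limited to a small region would be diluted.

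The header date split the P rats, and the contrast of P 1 and P 2 against P 3 and P 4 was fitted in the same limma model with NP as a group of its own. Gsta1 was lower in P 2, the rat of that pair with a usable spot, than in P 3 and P 4 by -0.67 ± 0.19 (SE; limma adjusted p = 0.0426). That arm is 1 rat, assumed to vary like the other groups, so this p holds no spread among rats of the pair. Gstm3 was lower in P 1 and P 2 by -0.69 ± 0.21 (SE; limma adjusted p = 0.0474). These were 2 of 7 members called, both lower and 1 of them on a lone rat, beside 14.0% of all probes called in either direction and 7.59% called lower. Gstt2 read -0.41 ± 0.14 (limma adjusted p = 0.0734), and the other 4 members read 0.29 (Mgst1), 0.16 (Gstm1), 0.16 (Gsta3) and 0.03 (Gstt1). Both calls lie close to the threshold. Both were lost without background correction (limma adjusted p = 0.0627 for Gsta1 and 0.0618 for Gstm3), with plain subtraction (0.108 and 0.136), with a normexp offset of 16 (0.0737 and 0.0866), with the scanner's scaled intensity (0.0725 and 0.1000), in the authors' deposited log2 values (0.0903 and 0.136) and in the plain test per probe (0.192 and 0.244). Leaving out NP 2, NP 3, P 3 or P 4 ended both (adjusted p from 0.0504 to 0.183), and leaving out P 1 ended that of Gsta1 (0.0614). Without P 2 the Gstm3 difference was -0.40 (0.358) and that of Gsta1 could not be fitted.

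With the header date as a block, the difference between the lines rests on date 1, where NP 2, NP 3, P 1 and P 2 meet. Gsta1 read 8.74 and 8.90 in NP against 7.97 in P 2, a difference of -0.85 ± 0.17 (SE; 95% interval -1.24 to -0.47; limma adjusted p = 0.0307). The P arm on date 1 was 1 rat, assumed to vary like the other groups. This SE and p hold no spread among P rats of that date. Gstm3 read 9.25 and 9.47 in NP against 8.89 and 8.32 in P, a difference of -0.76 ± 0.18 (SE; 95% interval -1.17 to -0.35; limma adjusted p = 0.0436). On these arrays both P values of Gstm3 and the usable P value of Gsta1 lay under both NP values. With so few arrays such an order is easily met, and its share over all probes was not computed. The calls were 2 of 7 members, both lower and that of Gsta1 on a lone P rat, beside 5.73% of all probes called and 4.08% called lower. A fit to the 4 arrays of date 1 alone gave the same differences with adjusted p of 0.0302 and 0.0481, beside 6.40% of probes called and 4.54% called lower. With flagged spots kept, P 1 included, Gsta1 read -0.82 (limma adjusted p = 0.0208), while Gstm3 read -0.75 and lost its call (0.0513).

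The other 5 members did not pass with the date as a block. Gstm1 was nearest, at 0.27 ± 0.13 (limma adjusted p = 0.231), followed by Mgst1 at 0.28 ± 0.19 (0.392). Gsta3 read 0.12, Gstt1 0.07 and Gstt2 0.04. The calls of Gsta1 and Gstm3 were lost with plain background subtraction (adjusted p = 0.141 and 0.161) and in the authors' deposited log2 values (0.150 and 0.176), where the differences themselves were -1.07 and -0.88. They were also lost without NP 2 (0.0710 and 0.0893) or NP 3 (0.158 and 0.221). Without P 2, Gstm3 read -0.47 (0.235) and Gsta1 could not be fitted, so the value of Gsta1 rests on that rat. With the header date as a random block neither passed (Gsta1 -0.52, adjusted p = 0.183; Gstm3 -0.47, adjusted p = 0.239).

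The P pairs were also left out in turn, which uses the same values again. Without P 3 and P 4, Gsta1 in P 2, again a lone P rat, was lower than in the 3 NP rats by -0.76 ± 0.19 (limma adjusted p = 0.0300) and Gstm3 read -0.61 ± 0.20 (0.0667), with 11.4% of all probes called and 7.34% called lower. Without P 1 and P 2, Gsta1 read -0.09 ± 0.14 and Gstm3 0.07 ± 0.17, none of the 7 members passed, and 0.652% of all probes were called. The low values were those of P 2 for both genes; P 1 lay close to NP 4 for Gstm3 and had no usable Gsta1 spot. Rat and date cannot be told apart within the P line.

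**Figure D3:**
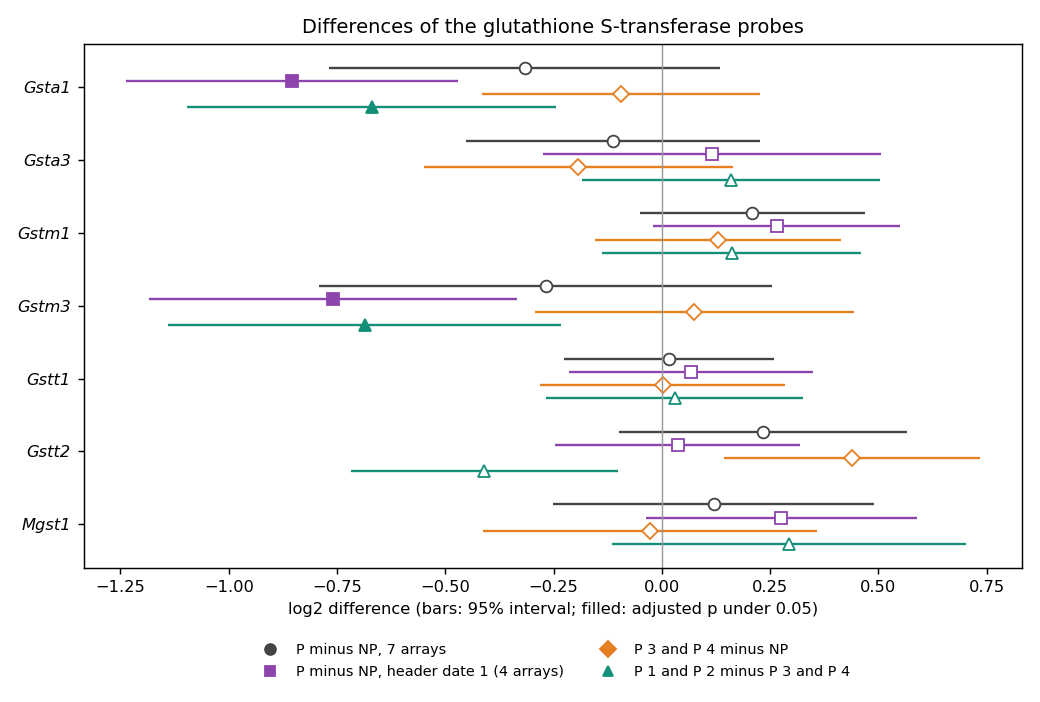
Log2 differences (x axis) of the 7 glutathione S-transferase probes (y axis) with their 95% intervals, for P minus NP on all 7 arrays, on the 4 arrays of header date 1 and without P 1 and P 2, and for P 1 and P 2 minus P 3 and P 4. Filled points have an adjusted p under 0.05. The filled points are those of Gsta1 and Gstm3, from -0.67 to -0.85, on header date 1 and between the pairs of P rats, with Gsta1 resting on P 2 alone in the date 1 arm.

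Gsta1 and Gstm3 followed each other over the arrays, with r = 0.963 over the 6 rats in which both were measured. This is a description, since both hold the same rats, dates and normalisation. The other pairs of members had r from -0.62 (Gsta3 and Gstt2) to 0.78 (Gstm1 and Mgst1). Among 5291 other named genes with a value on every array, those most like Gsta1 over its 6 arrays were Idi1 (r = 0.989), an isomerase of isoprenoid synthesis, Sh3kbp1 (0.983), an adaptor of receptor endocytosis, and Tbca (0.982), a tubulin-folding cofactor. Those most like Gstm3 over 7 arrays were Cyp51 (0.995), a demethylase of cholesterol synthesis, Dph5 (0.979), which acts in diphthamide synthesis, and Uqcrc2 (0.968), a subunit of respiratory complex III. With so few arrays high correlations are common: 109 genes exceeded an r of 0.9 with Gsta1 and 80 with Gstm3.

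Markers of brain cell types were read beside these differences, and 55 of the 61 tested lay above background on every array. Of the 61 tested markers in 10 lists, 0 differed between the lines in limma, and 5 were higher and 3 lower in P 1 and P 2 than in P 3 and P 4, 13.1% beside the 14.0% of all probes. With the header date as a block 2 markers were higher and 3 lower in P, 8.20% beside 5.73% of all probes. The lower markers in limma were Aif1 of microglia (-1.23, adjusted p = 0.0155), Fabp7 of astrocytes and radial glia (-0.94, 0.0155) and Nefm, a neurofilament of neurons (-0.81, 0.0272). The higher were Kdr, an endothelial receptor (0.75, 0.0255), and Slc6a13, a transporter of the meninges (0.72, 0.0457). Each is the single gene of its list called in this fit and does not stand for its cell type. On the arrays of date 1 alone, 2 of the 6 tested meningeal markers were called higher in P and 0 lower. The second was Slc22a6 (0.57, limma adjusted p = 0.0430). The list medians in this fit were 0.02 for microglia, -0.04 for astrocytes, 0.01 for neurons, 0.10 for endothelium and 0.13 for meninges. The summed linear signal of the 10 astrocyte markers was 21422 to 22493 in P 1 and P 2, 22692 to 24376 in P 3 and P 4 and 23336 to 24106 in the NP rats. The 5 endothelial and pericyte markers above background on all arrays summed to 3869 to 3896 in P 1 and P 2, against 3122 to 3224 in P 3 and P 4 and 3177 to 3400 in the NP rats. Choroid plexus markers summed to 4716 to 5158 in P 1 and P 2, 5977 to 5984 in P 3 and P 4 and 4761 to 7330 in the NP rats, and Clic6 was above background on no array. The sums of ependyma and microglia overlapped between the P pairs. Ependyma summed to 1184 to 1309 in P 1 and P 2, 1111 to 1245 in P 3 and P 4 and 1238 to 1307 in NP. Microglia summed to 5937 to 5943, 5921 to 6009 and 5778 to 6704 in the same order. The 5 meningeal markers with a value on every array summed to 5973 to 6051 in P 1 and P 2. They summed to 5617 to 5753 in P 3 and P 4 and 4582 to 5498 in the NP rats. The part of these cell types in the Gsta1 and Gstm3 values was not tested.

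A further 91 genes were listed in 4 groups, of the glutathione system and of NRF2 regulators and targets. Of these, 58 were tested and 1 was called between the lines in limma, beside 0.290% of all probes. It was Fth1, the heavy chain of ferritin and an NRF2 target, higher in P by 2.32 ± 0.22 (adjusted p = 0.000643). Its probe read 6.71, 7.16 and 7.08 in the NP rats and 9.23, 8.72, 9.63 and 9.63 in P 1 to P 4. It was above background on all 7 arrays, and the source of its difference was not tested. Among other glutathione transferases 0 of 6 tested passed, with Gstm7, a further mu-class gene and the one of smallest p, at 0.39 ± 0.21 (limma adjusted p = 0.477). Among genes of glutathione synthesis, reduction and breakdown 0 of 19 passed, with Slc3a2, the heavy chain of the cystine transporter, at 0.27 ± 0.12 (0.418). Gclc, the catalytic subunit of the enzyme that limits glutathione synthesis, read -0.12 ± 0.14 (limma adjusted p = 0.741). Among genes of conjugate export and mercapturate formation 0 of 18 passed, with Ephx1, the microsomal epoxide hydrolase, at 0.30 ± 0.14 (0.434). Among NRF2 regulators and targets 1 of 15 passed, Fth1. The medians of the 4 groups were 0.13, 0.12, 0.05 and 0.04, beside 0.01 over all probes.

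In the contrast within the P line the share of these genes called was that of all probes. Between P 1 and P 2 and P 3 and P 4, 8 of the 58 genes were called in limma, 2 higher and 6 lower, 13.8% beside 14.0% of all probes. Over all probes 7.59% were called lower. Of the 6 lower genes 5 came from the 15 tested NRF2 regulators and targets, and the rest of those 15 were not called. The 5 were Nfe2l2, which encodes NRF2 itself (-0.82), the peroxiredoxins Prdx1 (-1.08) and Prdx6 (-0.95), catalase Cat (-0.66) and Fth1 (-0.65). The sixth was Gstk1, a mitochondrial and peroxisomal kappa-class transferase (-0.62). Among the higher genes was Gstm4, another mu-class gene, by 0.51. The adjusted p of these named genes ranged from 0.0038 for Prdx1 to 0.0418 for Fth1. The summed signal of the NRF2 group was 11393 to 13048 in P 1 and P 2, 15533 to 16108 in P 3 and P 4 and 13898 to 14054 in the NP rats. With the header date as a block 2 of the 58 genes passed, Fth1 (2.05, limma adjusted p = 0.000884) and Prdx1 (-0.98, 0.0155), 3.45% beside 5.73% of all probes.

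**Figure D4:**
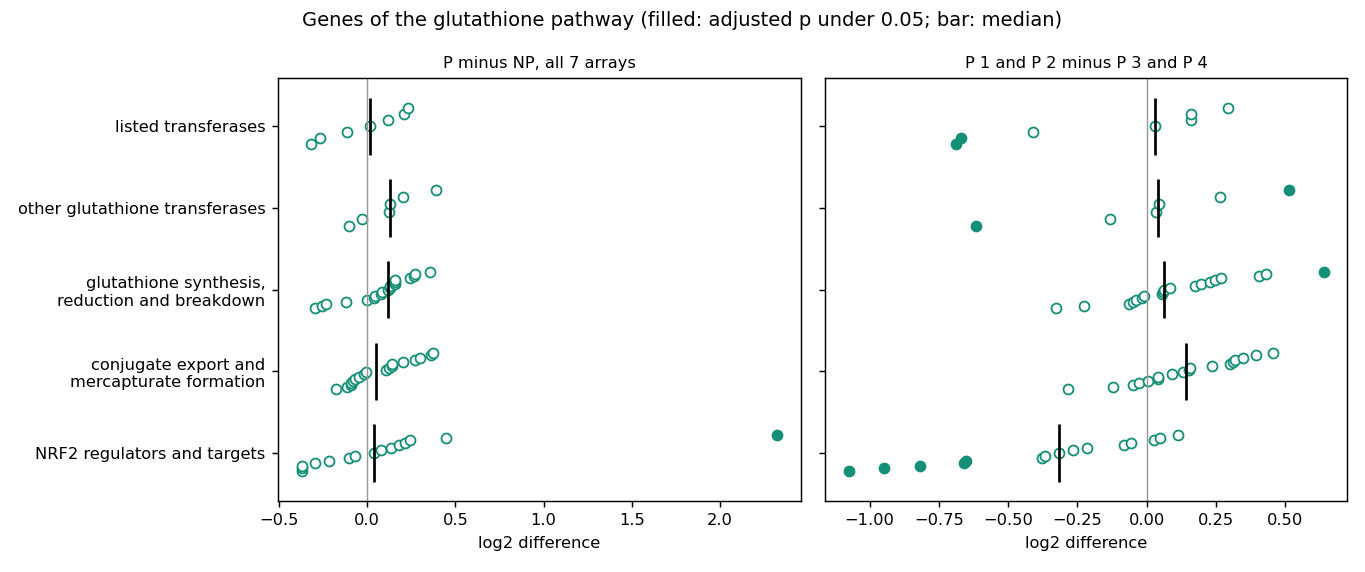
Log2 differences (x axis) of the 7 glutathione S-transferases and of the tested genes in the 4 groups of other listed genes (y axis). Shown are P minus NP (left) and P 1 and P 2 minus P 3 and P 4 (right). Each point is a gene, filled where its adjusted p is under 0.05, and bars are medians. On the left only Fth1 is filled, and on the right 5 of 15 NRF2 regulators and targets are filled below 0, with a group median of -0.32, where 14.0% of all probes were called and 7.59% called lower.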

How the data were processed

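Groups and rat numbers came from the sample titles. Per the file headers, the deposited scanner tables hold each spot's mean intensity, local background intensity, scaled intensity and quality flag. A second deposited table holds log2 values from the authors, which tracked the log2 scaled intensity of each array (r at least 0.9985, medians -0.07 to 0.05). The steps behind that table and the genome build are not stated in the labels or headers.

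Intensities were corrected with normexp (offset 50) and quantile-normalised over transcript probes in limma 3.58.1 (R 4.3.3). Outlier spots (masked, contaminated or irregular) were treated as missing. The 29003 tested probes were above background on at least 3 of 7 arrays. Lines were compared with lmFit and eBayes without a block and with Benjamini-Hochberg adjustment over all tested probes; a call is an adjusted p under 0.05. With the header date as a block, a probe was fitted only where its remaining arrays gave the difference (28919 probes). The fit was also run on simulated data with independent noise and no effect of the header date. That run does not show how the fit behaves where the date matters.

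Gene names came from RefSeq transcripts in the GRCr8 table, joined on unversioned accessions (7207 probes, 6046 genes). Its promoter windows cover 8 of the 10 genes, not Gstt1 and Gstt2. Older names differ: the table lists Gsta3 among the synonyms of Gsta1. Probe sequences were not used, so cross-hybridisation among related transferases was not tested. Promoters were aligned with biopython 1.88, and figures drawn with matplotlib 3.10.9.

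Named are the probes of the listed genes, the 3 genes most correlated with each member called with the date as a block, and from each pathway list the gene of smallest p. Other pathway and marker genes were named after their values were seen. The values of 1 pathway gene are not reported here, though it is counted in its list. Of 85 listed markers 61 were tested, in 10 lists (astrocytes, oligodendrocytes, neurons, microglia, endothelium, choroid plexus, ependyma, meninges, erythroid cells, pituitary and pineal). The members and lists were chosen with earlier results of these data known. Alternatives were other background corrections, scalings, filters, variance models, blocks and left-out rats.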

Additional observations from a re-analysis of the deposited data

How the results depend on the processing

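Of 7 transferases, none was called between P and NP in 17 of 20 alternatives or with any rat left out; the exceptions were the header date as a block (2), header date 1 only (2) and without P 3 and P 4 (1). Over all probes 84 were called, against 52 with the scanner's scaled intensity, 51 in the deposited log2 table, 49 with probes above background on all 7 arrays, 154 with array weights, 35 in the plain test, 1656 with the header date as a block, 1850 on date 1 only, 159 with the date as a random block, 189 without P 1 and P 2 and 3311 without P 3 and P 4 (51 to 121 with each rat left out). The 2 calls between P 1 and P 2 and P 3 and P 4 became 0 without background correction, with plain subtraction, with a normexp offset of 16, with the scaled intensity, in the deposited table and in the plain test, 1 with cyclic loess, with either other filter, with flagged spots kept and with an intensity trend, and 4 with median scaling, which added Gsta3 (0.51) and Gstt2 (-0.57); with rats left out they were 0 to 2. The 2 calls with the date as a block became 0 with plain subtraction and in the deposited table, 1 with median scaling and with flagged spots kept (on date 1 only as well), Gstm3 being the one lost each time, and 0 to 2 with rats left out. Over all probes the date block called 1656, against 68 with plain subtraction and 47 in the deposited table. It called 1173 without background correction and 618 with median scaling. The share of called probes that were higher in P was 28.8% in the main date block fit. It was 44.1% with plain subtraction, 46.8% in the deposited table, 26.9% without background correction and 19.3% with median scaling. The alternatives run on the date block were chosen after seeing the data. The cause of these changes was not tested.

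Differences that changed sign were small, apart from Gsta3 with its irregular spot kept and the date as a block, -0.60 (also on date 1 only). For P minus NP they were Gsta3 with the date as a block or on date 1 only (0.12), Gstm3 (0.075) and Mgst1 (-0.027) without P 1 and P 2, and, with each rat left out, Gsta3 (-0.26 to 0.036) and Gstt1 (-0.022 to 0.053, and -0.0068 without P 4). Within the P line they were Gstt1 with cyclic loess (-0.0072), in the deposited table (-0.036) and with each rat left out (-0.055 to 0.11), and Mgst1 with each rat left out (-0.011 to 0.60). With the date as a block they were Gstt2 without background correction (-0.0070), with median scaling (-0.021) and with each rat left out (-0.013 to 0.087).

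With the replicate number as a block, 104 probes were called and 0 transferases. Correlations of deviations from the group means were 0.0970, 0.0572 and 0.0207 for rats with the same number. Between rats with different numbers they ranged from -0.316 to 0.357. The labels do not say whether the numbers pair the rats, and these correlations cannot settle it. Gsta3, near background on 3 of 4 P arrays, is the member whose low signal limits it most.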
